A study of Solanum lycopersicum with 8 samples.

Results

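In young leaves of tomato seedlings, 106 of 34722 genes differed in the same direction after a gibberellin application in 2 genotypes, the cultivar M82 and a mutant of its DELLA gene. They were chosen from the RNA-seq read counts themselves. A gene was taken when its mean over the 8 libraries was at least 2 CPM (counts per 1000000 of the library total) and when, in both genotypes, the libraries with gibberellin lay wholly above or wholly below those without it. The gap between the nearest libraries had to be at least 0.3 on the log2(CPM + 0.5) scale. Of the 14393 genes at 2 CPM or more, 95 met this as higher and 11 as lower after the treatment. One further gene that meets it, Solyc09g008670, was left out of the list by the rule. Because the gibberellin contrasts chose the genes, their values are given as a description, and no test supports them.

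M82 carries a functional PROCERA gene, and pro∆GRAS (the mutant) is a loss-of-function line named for the GRAS domain that its allele lacks. Seedlings of both received paclobutrazol, an inhibitor of gibberellin synthesis, at 10 mg/l daily for 3 days, the controls included. GA3, an active gibberellin, was then given at 100 µM to 1 set of each genotype, and leaves were sampled 3 hours later. Each of the 4 groups held 2 libraries, described as biological replicates with no word on separate or pooled plants. The spread behind every p-value is therefore that of the libraries alone and may be technical in part. Libraries carry the number of their column: 1 and 3 for M82 without GA3, 1 and 2 for M82 with GA3, and 1 and 3 for each mutant group.

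Gibberellins act in plants by binding the receptor GID1, which then joins DELLA proteins and leads to their degradation. DELLA proteins are nuclear regulators of the GRAS family that restrain gibberellin responses such as stem elongation, largely by binding other transcription factors. PROCERA encodes the tomato DELLA, and loss of it gives tall plants that resemble ones treated with gibberellin. Setting the genotypes side by side asks which transcripts differ after GA3 with and without intact PROCERA.

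Total counts ran from 14395465 to 18483028 per library. In M82 library 3 without GA3 and M82 library 2 with GA3 45.5% and 50.3% of all counts fell on the 100 highest genes, where the other libraries had 31.4% to 41.3%. Of the 34722 identifiers, 0 could be joined to a RefSeq gene, so members are given by identifier with no function. Pathway lists, leaf markers and the PROCERA transcript were not analysed here, and the chromosome given is the one in the identifier. In bulk leaf RNA, fewer cells of a type and less RNA per cell cannot be told apart.

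The gap was met as higher after GA3 by 5.02% of the 14393 genes in M82 and by 5.42% in the mutant, and as lower by 3.27% and 1.01%. Counting the gene that was left out, 96 genes were higher in both, which is 13.3% of the 722 higher in M82 and 12.3% of the 780 higher in the mutant. The 11 lower in both were 2.34% of the 471 lower in M82 and 7.59% of the 145 lower in the mutant. Gaps in opposite directions occurred in 25 genes, 19 lower in M82 and higher in the mutant and 6 the other way, and with the TMM factors described next the split was 6 and 19. The genes that shared a direction thus outnumbered those with opposite ones, and nearly all of them were higher after GA3.

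The division into 95 higher and 11 lower depends on how libraries are scaled. With library totals, the median change of all 14393 genes was -0.05 in M82 and 0.12 in the mutant on the log2 scale. With TMM factors, which centre the typical gene, these medians were 0.01 and -0.02, and the same gaps gave 69 higher and 23 lower genes. Of the members, 59 of the 95 higher and 8 of the 11 lower met the gaps with TMM factors too. RLE, the size factors of DESeq2, gave 70 higher and 28 lower genes, so that higher genes outnumbered lower ones under all 3 scalings. Without both M82 libraries whose counts were concentrated on few genes, which leaves fewer libraries to separate, 353 genes were higher and 39 lower.

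**Figure D1:**
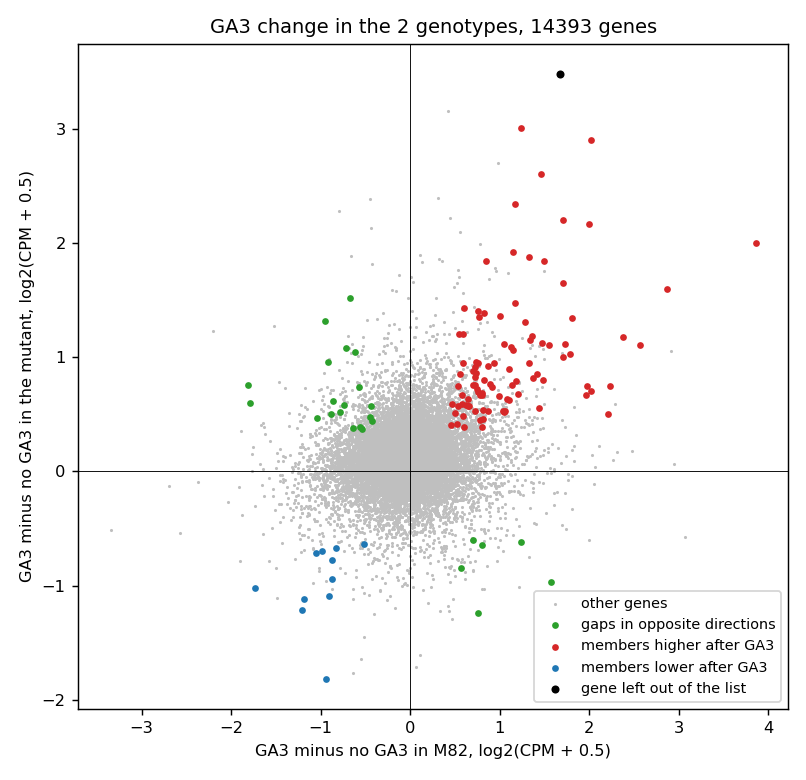
Change after GA3 in M82 (horizontal) and in the mutant (vertical) for 14393 genes, each the difference of group means of log2(CPM + 0.5). The 95 red points lie in the upper right, the 11 blue points in the lower left, the 25 green points have gaps in opposite directions, and the black point is the gene left out of the list.

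The 95 higher members had a median change of 0.99 in M82 (quartiles 0.73 and 1.39) and of 0.83 in the mutant (quartiles 0.63 and 1.18), on the log2(CPM + 0.5) scale. At the median this is 1.99-fold in M82 and 1.77-fold in the mutant. Changes ran from 0.46 to 3.86 in M82 and from 0.39 to 3.01 in the mutant, and 27 members exceeded 1 in both. In the edgeR fit with TMM factors the medians were 1.17 and 0.75, beside 0.00 and -0.01 for all genes. The 11 lower members had medians of -0.94 in both genotypes on the log2(CPM + 0.5) scale and of -1.08 and -1.20 in the edgeR fit.

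All 106 members entered the fit of 18340 genes, which also held genes under 2 CPM. Shares of all genes in this fit thus cover lower levels than the members do. At an adjusted p under 0.05 ("called"), edgeR's quasi-likelihood test called 2 members for GA3 in M82, where 0.0164% of all genes were called in either direction, and 0 in the mutant, where 0% were and 489 genes had an unadjusted p under 0.05. DESeq2 called 26 members in M82 and 12 in the mutant, beside 0.589% and 0.158% of all genes. DESeq2 called 4 members in both genotypes, Solyc07g064600.2, Solyc09g083440.2, Solyc03g121270.2 and Solyc03g117280.2, the last of them lower after GA3. The share of all genes called in both was not counted. All these counts use the contrasts that chose the members and are read no further.

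**Figure D2:**
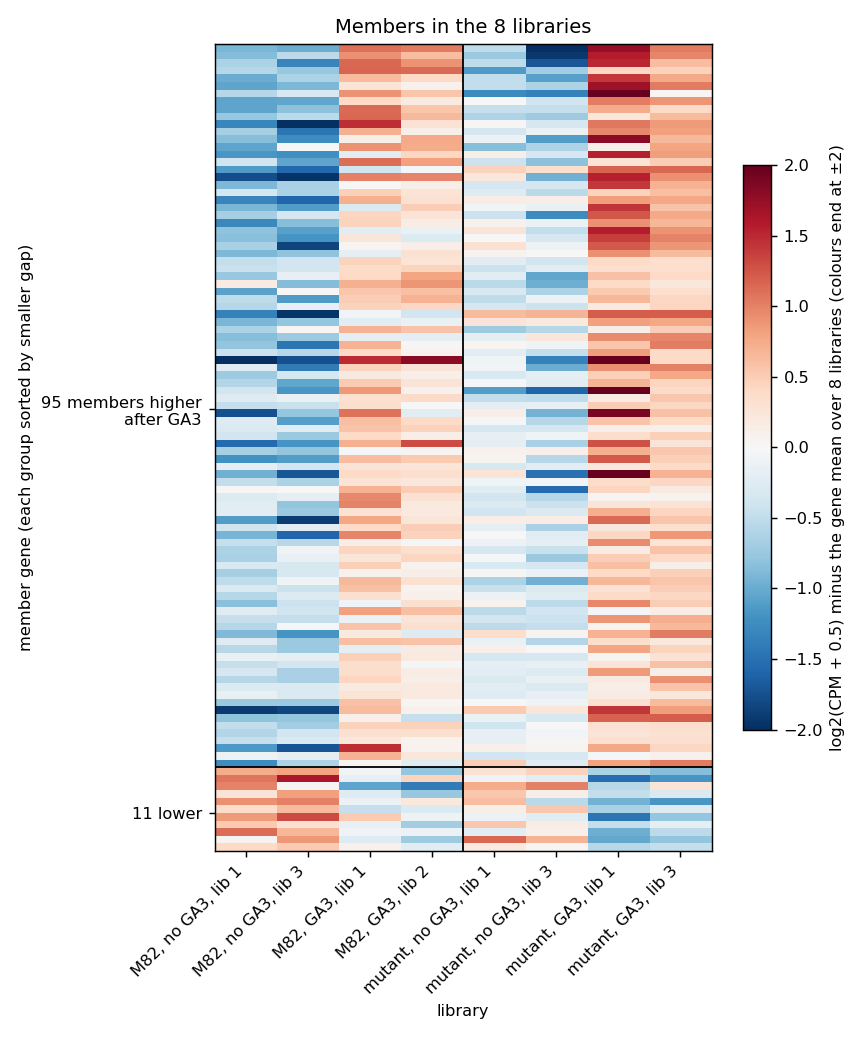
The 106 members (rows) in the 8 libraries (columns), as log2(CPM + 0.5) minus the mean of the gene over the libraries, red for higher and blue for lower. In the upper block of 95 members the GA3 libraries of both genotypes are redder than those without GA3, and in the lower block of 11 they are bluer.

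Levels of single members, and their order between libraries, are given by library totals. The order of the genotypes can differ with TMM factors. Treated mutant libraries lay above treated M82 libraries in 37 higher members by library totals and in 21 with TMM factors. Among the higher members, Solyc07g064600.2 on chromosome 7 had the widest gap when each member is ranked by the narrower of its gaps. It was at 31.2 and 29.7 CPM in M82 without GA3 and at 128 and 122 CPM with GA3. In the mutant it was at 41.6 and 9.95 CPM without and at 200 and 123 CPM with GA3. The M82 pairs lay close together, and the untreated mutant libraries lay on either side of the untreated M82 pair. The change was 2.02 in M82 and 2.91 in the mutant on the log2(CPM + 0.5) scale.

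Solyc12g010020.1, on chromosome 12, had low values without GA3. It was at 1.497 and 2.01 CPM in untreated M82 and 6.31 and 5.06 CPM in treated M82. The mutant had 1.68 and 0.450 CPM without and 10.3 and 6.62 CPM with GA3. Treated mutant libraries lay just above the treated M82 libraries, and the change was larger in the mutant (2.61) than in M82 (1.46).

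Solyc09g083440.2, on chromosome 9, showed nearly equal changes of 1.99 in M82 and 2.17 in the mutant. Its libraries were at 21.1 and 12.9 CPM in M82 and 22.8 and 9.73 CPM in the mutant without GA3. With GA3 they were at 73.2 and 61.5 CPM in M82 and 93.9 and 50.7 CPM in the mutant. At both states the ranges of the genotypes overlapped.

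Solyc10g074540.1, on chromosome 10, had close pairs of libraries with GA3. It was at 8.23 and 7.16 CPM in untreated M82 and at 28.6 and 27.9 CPM in treated M82. In the mutant it was at 5.41 and 7.54 CPM without and at 16.7 and 17.3 CPM with GA3. Treated mutant libraries stayed below treated M82 libraries, and the change was 1.81 in M82 and 1.35 in the mutant.

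Solyc03g121270.2, on chromosome 3, was at 65.3 and 83.8 CPM in untreated and at 203 and 172 CPM in treated M82. The mutant had 92.0 and 60.8 CPM without and 348 and 220 CPM with GA3. The untreated genotypes overlapped, and both treated mutant libraries lay above both treated M82 libraries. The change was 1.33 in M82 and 1.88 in the mutant.

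Solyc02g077420.2, on chromosome 2, was at 4.35 and 4.93 CPM in untreated and at 11.5 and 10.2 CPM in treated M82, and at 6.71 and 6.02 CPM in the untreated and 32.3 and 20.2 CPM in the treated mutant. Its mutant libraries lay above the M82 libraries of the same treatment in every case. The change was 1.15 in M82 and 1.92 in the mutant.

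Solyc03g098720.2 changed by 1.17 in M82 and 2.34 in the mutant. It was at 1.63 and 2.01 CPM in untreated and 5.35 and 4.15 CPM in treated M82, and at 0.812 and 0.731 CPM in the untreated and 12.3 and 2.75 CPM in the treated mutant. Its treated mutant libraries were far apart and held the treated M82 pair between them. Solyc09g074970.2, Solyc05g006510.1 and Solyc04g074450.1 complete the 10 members with the widest gaps. Solyc09g074970.2 was at 0.749 and 0.764 CPM in untreated and 2.93 and 2.45 CPM in treated M82, and at 2.11 and 1.46 CPM in the untreated and 4.79 and 4.28 CPM in the treated mutant, above M82 in each treatment. Solyc05g006510.1 was at 5.38 and 6.39 CPM in untreated and 26.3 and 17.5 CPM in treated M82, and at 8.33 and 8.27 CPM in the untreated and 19.8 and 15.4 CPM in the treated mutant. These 3 changed by 1.34, 1.79 and 1.55 in M82 and by 1.15, 1.03 and 1.10 in the mutant. By library totals, the change was larger in the mutant for 6 of these 10. That count depends on the scaling and was not made with TMM or RLE factors. All 10 met the gaps with TMM and with RLE factors.

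**Figure D3:**
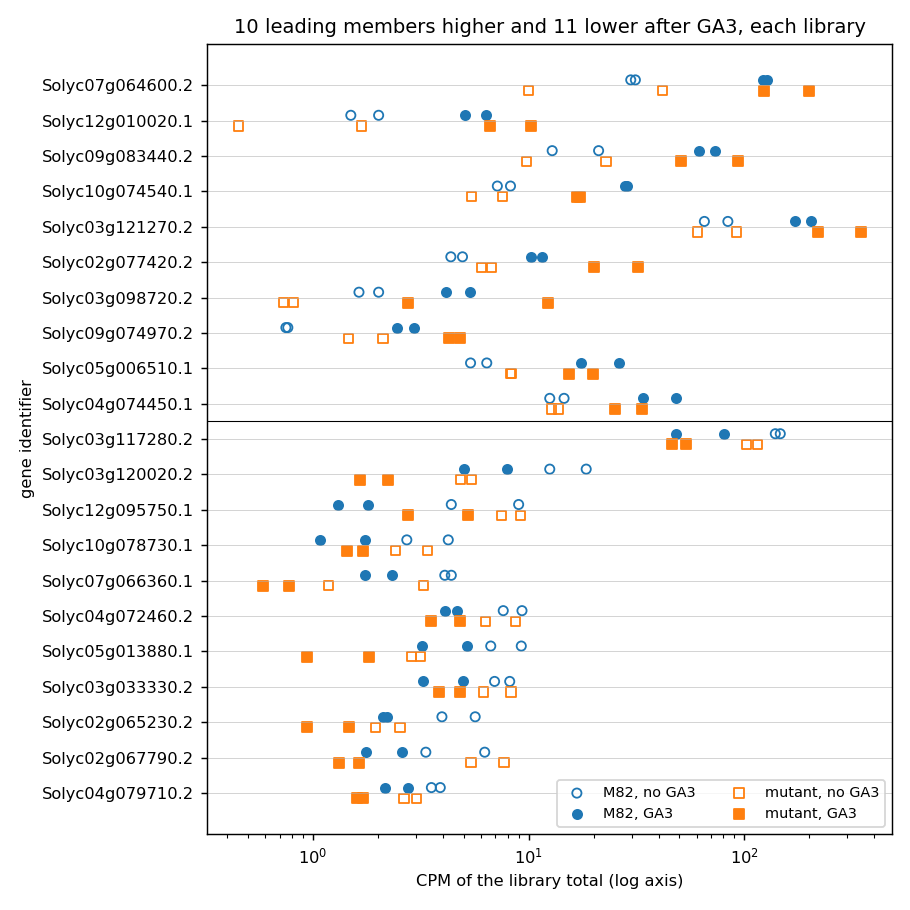
CPM of the library total on a log axis for the 10 members with the widest gaps that were higher after GA3 (above the line) and the 11 that were lower (below it). Each symbol is 1 library, circles for M82 and squares for the mutant, open without and filled with GA3; in every gene the filled symbols of a genotype lie on one side of its open ones.

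The 11 lower members were led by Solyc03g117280.2, on chromosome 3. It had 139 and 147 CPM in untreated M82 and 80.1 and 48.4 CPM in treated M82. In the mutant it had 103 and 116 CPM without and 53.8 and 46.2 CPM with GA3. The change was -1.19 in M82 and -1.12 in the mutant, and the treated ranges of the genotypes overlapped.

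Solyc03g120020.2, also on chromosome 3, was at 12.5 and 18.5 CPM in untreated and at 5.01 and 7.90 CPM in treated M82. The mutant was at 5.41 and 4.84 CPM without and at 1.65 and 2.23 CPM with GA3. The untreated mutant thus overlapped treated M82, and GA3 libraries of the mutant were lower again. The change was -1.21 in each genotype, and the gaps were met with RLE but not with TMM factors.

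Solyc12g095750.1, on chromosome 12, was the lower member with the largest change in M82, -1.74. It went from 8.98 and 4.38 CPM to 1.80 and 1.31 CPM there. In the mutant it was at 7.47 and 9.17 CPM without and at 2.75 and 5.22 CPM with GA3, so that treated mutant libraries stayed above treated M82 libraries.

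Solyc02g067790.2, on chromosome 2, had the largest change in the mutant, -1.81, from 7.68 and 5.40 CPM to 1.32 and 1.64 CPM. In M82 it was at 3.33 and 6.25 CPM without and 2.59 and 1.76 CPM with GA3. The gap in M82 was narrow, 0.31, and was not met with TMM factors.

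Solyc07g066360.1 was at 4.08 and 4.38 CPM in untreated and 1.75 and 2.33 CPM in treated M82, and at 3.25 and 1.18 CPM in the untreated and 0.771 and 0.586 CPM in the treated mutant. Solyc02g065230.2 was at 5.65 and 3.96 CPM in untreated and 2.20 and 2.10 CPM in treated M82, and at 1.95 and 2.53 CPM in the untreated and 0.936 and 1.47 CPM in the treated mutant. In both, treated mutant libraries were the lowest of the 4 groups. Solyc07g066360.1 and Solyc05g013880.1 changed by -0.91 and -0.87 in M82 and by -1.09 and -0.94 in the mutant. Solyc10g078730.1, Solyc04g072460.2, Solyc03g033330.2 and Solyc02g065230.2 changed by -1.05, -0.87, -0.83 and -0.98 in M82 and by -0.71, -0.78, -0.67 and -0.70 in the mutant. Solyc04g079710.2 had the smallest changes, -0.52 and -0.63. In 8 of the 11 the treated mutant had the lowest mean of the 4 groups. The rule puts each treated group below its untreated one here, so a treated group must be lowest. The share over all genes was not counted, and nothing is read from this count.

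The changes of the 95 higher members were graded alike in the genotypes to a moderate degree, with a Spearman rho of 0.45 and a Pearson r of 0.42 across these genes. The genes share their libraries and were chosen for a shared direction, so these are descriptions only. The change was larger in M82 for 57 of the 95, or 60%, by library totals, where it was larger in M82 in absolute size for 57.3% of all 14393 genes. This count depends on the scaling. In the edgeR fit with TMM factors the change was larger in M82 for 72 of the 95, or 75.8%. Of all 18340 genes tested, 50.1% had the more positive change in M82, a signed measure unlike the absolute size above. The share of all genes by absolute size in this fit was not counted, so nothing is read from the difference. In 71 of the 95 the fold changes of the genotypes by library totals lay within a factor of 1.5 of each other. This factor is between fold changes, not between log2 values, and small changes meet it easily. The share of all genes was not counted. For the difference of the GA3 effects, edgeR called 0 of the 106 members, beside 0% of all genes, and the lowest adjusted p among them was 0.665. An unadjusted p under 0.05 occurred in 12 members (11.3%), beside 3.76% of all genes. DESeq2 called 0 members, beside 0.109% of all genes. The rule fixed the sign of both effects, so this is no sign that the effects are equal.

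The widest differences in size, picked after the values were seen, lay in both directions. Solyc05g007950.2, on chromosome 5, was at 2.38 and 4.86 CPM in untreated and at 50.9 and 63.2 CPM in treated M82, a change of 3.86, the largest in M82. In the mutant it was at 16.6 and 6.64 CPM without and at 80.9 and 23.6 CPM with GA3, a smaller change in which the untreated mutant stood above untreated M82. Solyc09g089540.2, on chromosome 9, went from 2.52 and 1.25 CPM to 6.59 and 3.64 CPM in M82 and from 1.30 and 0.787 CPM to 29.0 and 4.57 CPM in the mutant. Its change of 3.01 was the largest in the mutant, and mutant library 1 with GA3 stood far above library 3. Solyc02g079440.1 had 1 count and no count in the untreated M82 libraries, against 3.44 and 3.35 CPM with GA3.

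Within the groups, 1 library was often above the other across the higher members. In the mutant without GA3, library 1 was above library 3 for 67 of 95 members, or 70.5%, against 53.1% of all 14393 genes. With GA3, mutant library 1 was above library 3 for 57 of 95, or 60%, against 55.5%. In M82 with GA3, library 1 was above library 2 for 71.6% of the members and 76.8% of all genes. Library 1 exceeded library 3 in untreated M82 for 54.7% of the members and 65.3% of all genes. The part of these library differences in the sizes above was not tested.

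The difference between the genotypes, averaged over the 2 treatments, was not part of the rule and could be tested. The rule favours genes whose libraries of a group lie close together, and the part of this in the share of calls was not tested. With edgeR, 10 of 106 members (9.43%) were called, against 3.05% of the 18340 genes tested, genes under 2 CPM included. The share called among the 14393 genes at 2 CPM or more, the floor of the members, was not counted. DESeq2 called 20 members, against 6.95% of all genes. Among members higher after GA3, it called 12 as higher and 3 as lower in the mutant. Among members lower after GA3, it called 5 as lower in the mutant and 0 as higher. Over all genes, DESeq2 called 737 as higher and 538 as lower in the mutant. Without both M82 libraries that stand apart, edgeR called 6. Of the 10 members called by edgeR, 8 were higher in the mutant, all of them among those higher after GA3. The other 2 were lower in the mutant, both among those lower after GA3. This match of directions was not complete with DESeq2, as its 3 calls named above show. Among all genes, edgeR called 1.95% as higher and 1.1% as lower in the mutant, 357 and 202 genes. Scaling by library totals moved this split to 560 and 107 genes and gave 11 higher and 2 lower members.

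Most members showed no called genotype difference, and their direction was mixed. The edgeR log2 fold change of the mutant over M82 was above 0 for 54 of the 95 higher members, with a median of 0.09, beside 50.7% of all genes tested and a median of -0.01 over genes at 2 CPM or more. It was below 0 for 10 of the 11 lower members, with a median of -0.58. The called members higher in the mutant are described first.

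Solyc03g111690.2, on chromosome 3, was the clearest. It was at 11.9 and 7.64 CPM in untreated and 30.1 and 23.9 CPM in treated M82. The mutant was at 48.8 and 50.5 CPM without and 73.2 and 73.0 CPM with GA3. All 4 mutant libraries lay above all 4 M82 libraries. The mutant exceeded M82 by an averaged 1.69 on the log2 scale (SE 0.155, edgeR adjusted p = 0.00206).

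Solyc06g054320.1, on chromosome 6, had the same order of groups. M82 was at 7.55 and 5.42 CPM without and 12.9 and 16.6 CPM with GA3, and the mutant at 23.6 and 21.9 CPM without and 39.1 and 38.4 CPM with GA3. The averaged difference was 1.38 on the log2 scale (SE 0.186, edgeR adjusted p = 0.00698).

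Solyc04g081790.2, on chromosome 4, had its widest separation of the genotypes without GA3. It was at 2.86 and 3.06 CPM in untreated and 19.0 and 12.97 CPM in treated M82, and at 17.6 and 14.5 CPM in the untreated and 33.4 and 22.1 CPM in the treated mutant. The untreated mutant overlapped treated M82. The averaged difference was 1.40 on the log2 scale (SE 0.191, edgeR adjusted p = 0.00709), and the gap between mutant libraries, 0.32, was not met with TMM factors. The calls of these 3 genes held in all 15 alternatives run, the fits without 1 library included.

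Solyc10g005210.2, on chromosome 10, was at 2.59 and 2.08 CPM in untreated and 12.2 and 9.10 CPM in treated M82, and at 8.06 and 7.99 CPM in the untreated and 13.4 and 12.7 CPM in the treated mutant. The averaged difference was 0.83 on the log2 scale (SE 0.168, edgeR adjusted p = 0.0325). Without GA3 it was 1.67 (edgeR adjusted p = 0.0323), and with GA3 it was -0.01 (edgeR adjusted p = 0.988).

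Solyc06g050900.2 was at 5.92 and 6.599 CPM in untreated and 9.80 and 10.46 CPM in treated M82, and at 13.9 and 13.3 CPM in the untreated and 20.9 and 20.2 CPM in the treated mutant, so that its groups were all apart. Solyc12g014430.1 was at 3.67 and 3.75 CPM in untreated and 7.26 and 4.78 CPM in treated M82, and at 6.11 and 5.29 CPM in the untreated and 15.97 and 16.4 CPM in the treated mutant, where treated M82 and the untreated mutant overlapped and the other groups stood apart. Solyc07g048050.1, Solyc06g050900.2, Solyc04g074770.2 and Solyc12g014430.1 had averaged log2 fold changes of 0.96, 0.84, 0.89 and 0.81 (edgeR adjusted p = 0.0329, 0.0398, 0.0412 and 0.0477). None of these calls, nor that of Solyc10g005210.2, held in all 15 alternatives run. Solyc07g048050.1 did not meet the gaps with TMM or RLE factors, and Solyc06g050900.2 did not with RLE factors. In all 8 members called as higher in the mutant, untreated mutant libraries lay above untreated M82 libraries and treated mutant above treated M82 libraries on library totals, where 23% and 42.7% of all 14393 genes did. With TMM factors the first held in 8 and the second in 7 of the 8, beside 18.2% and 24.4% of all genes. These genes were picked by their genotype call, so the counts are a description. The calls were sensitive to single libraries: leaving out each in turn gave 3 to 12 called members, with 3 when any of mutant libraries 1 and 3 without GA3 or mutant library 1 with GA3 was left out. They numbered 4 and 5 without M82 libraries 1 and 2 with GA3, and 6 without M82 library 3 without GA3 or mutant library 3 with GA3.

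By library totals, both called lower members had mutant libraries wholly below the M82 libraries of the same treatment. Of all 14393 genes, 12.6% did so without GA3 and 10.7% with GA3. These members were picked by their genotype call, so this is a description. For Solyc03g120020.2 the averaged difference was -1.91 on the log2 scale (SE 0.292, edgeR adjusted p = 0.0113). Solyc05g013880.1 was at 6.67 and 9.24 CPM in untreated and 5.18 and 3.18 CPM in treated M82, and at 3.14 and 2.87 CPM in the untreated and 0.936 and 1.82 CPM in the treated mutant. Its averaged difference was -1.71 on the log2 scale (SE 0.298, edgeR adjusted p = 0.0194). Neither was called without mutant library 1 or 3 without GA3 or without mutant library 1 with GA3, and Solyc05g013880.1 was also lost without M82 library 1 with GA3.

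**Figure D4:**
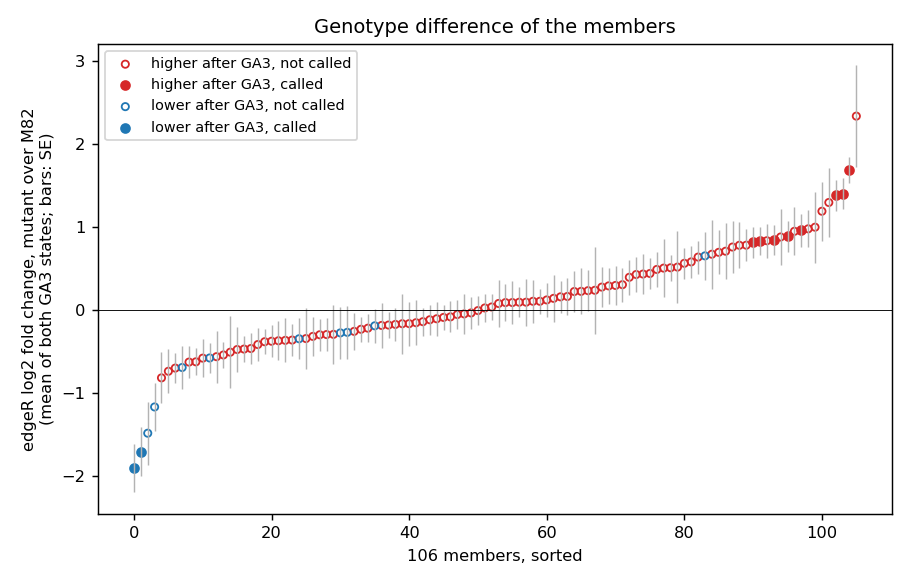
Log2 fold change of the mutant over M82, averaged over both treatments, for the 106 members sorted by value (edgeR; bars are SE). The 8 called members higher in the mutant are filled red, the 2 called members lower in the mutant are filled blue, and most open points lie within 1 of 0.

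Separate genotype contrasts use the same untreated or treated libraries as the rule, and low untreated M82 values help a gene into the list. Without GA3, edgeR called 4 members, all higher in the mutant, beside 0.294% of all genes called as higher and 0.393% in either direction. They were Solyc03g111690.2, Solyc04g081790.2, Solyc10g005210.2 and Solyc06g054320.1 (edgeR adjusted p = 0.0132, 0.0234, 0.0323 and 0.0357), and none was called without mutant library 1 or 3 without GA3. Without M82 library 3 without GA3, 2 members were called. DESeq2 called 10, beside 2.25%. With GA3, edgeR called 0 members, beside 0.354% of all genes, and DESeq2 called 7, beside 3.01%. In edgeR 26 members (24.5%) had an unadjusted p under 0.05, beside 14.7% of all genes.

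On CPM of library totals, both untreated mutant libraries lay above both untreated M82 libraries in 50 of the 95 higher members, or 52.6%, against 23% of all 14393 genes. With GA3, treated mutant libraries lay above treated M82 libraries in 37, or 38.9%, against 42.7% of all genes, and below them in 16, against 10.7%. With TMM factors this turned round, to 21 above and 32 below, beside 24.4% and 27.3% of all genes, whereas without GA3 43 of the 95 lay above and 11 below, beside 18.2% and 18.3%. By library totals, all 4 mutant libraries lay above all 4 M82 libraries in 5 of the 95, against 11% of all genes, and below in 1 of the 11 lower members, against 2.38%. The untreated mutant lay wholly below treated M82 in 75 of the 95 and wholly above it in 5, beside 15.9% and 32.9% of all genes. The rule asks for high treated M82 libraries and low untreated mutant libraries in these members, so nothing is read from this count. Of the 11 lower members, 6 had untreated mutant libraries below untreated M82 libraries, against 12.6% of all genes. Low untreated M82 libraries in higher members, high ones in lower members and close pairs all help a gene meet the rule. In untreated M82 the median absolute log2 difference of the pair was 0.28 in higher members, beside 0.41 over all genes. The other counts of this paragraph are therefore descriptions too.

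The members came from 11 of the 12 numbered chromosomes. Chromosome 11 held none among its 919 genes at 2 CPM or more, where members made up 0.736% of such genes over the whole table. The share was highest on chromosome 12, with 11 higher and 1 lower among 889 genes (1.35%), and on chromosome 9, with 12 higher among 1054 (1.14%). Some members stood next to each other: 5 pairs lay at most 4 identifiers apart, each pair higher after GA3, and 3 of these were immediate neighbours in the order of identifiers.

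The longest run was on chromosome 9, where Solyc09g083440.2, Solyc09g084480.2 and Solyc09g084490.2 lay within a stretch of 7 listed identifiers. Solyc09g084480.2 was at 2.99 and 2.15 CPM in untreated and 6.36 and 10.2 CPM in treated M82, and at 5.30 and 2.42 CPM in the untreated and 21.6 and 9.38 CPM in the treated mutant. Solyc09g084490.2 was at 20.5 and 12.1 CPM in untreated and 53.9 and 51.3 CPM in treated M82, and at 49.0 and 14.1 CPM in the untreated and 229 and 66.0 CPM in the treated mutant. In all 3 genes library 1 exceeded library 3 in both mutant groups. Between them, Solyc09g084470.2 changed by 0.53 in M82 and 1.77 in the mutant and Solyc09g084450.2 by 0.85 and 0.21, and neither was a member.

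On chromosome 2, Solyc02g077420.2 and its neighbour Solyc02g077430.2 changed by 1.15 and 0.75 in M82 and by 1.92 and 0.95 in the mutant. The genes on either side of this pair, Solyc02g077410.2 and Solyc02g077440.2, changed by -0.14 and 0.23 in M82 and by 0.25 and 0.04 in the mutant. On chromosome 1, Solyc01g106690.2 and Solyc01g106700.2 changed by 0.93 and 1.10 in M82 and by 0.95 and 0.90 in the mutant, with Solyc01g106680.2 beside them at 0.01 and 0.06. On chromosome 4, Solyc04g074410.1 and Solyc04g074450.1 changed by 1.48 and 1.55 in M82 and by 0.80 and 1.10 in the mutant, and the 3 genes between them changed by 0.36 to 1.05 in M82 and 0.22 to 0.56 in the mutant. The library kit does not mark strand, so reads of overlapping neighbours cannot be told apart, and how reads of near-identical copies were counted is not given in the sources used here.

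At the edge of the rule, the members nearest the threshold of 0.3 were Solyc05g007770.2 and Solyc09g015830.1 among the higher, with smaller gaps of 0.3005 and 0.3013, and Solyc04g079710.2 and Solyc02g067790.2 among the lower, with 0.3091 and 0.3111. Just outside lay Solyc06g007620.2 and Solyc01g094750.2 with 0.2990 and 0.2980, and Solyc04g055250.2 and Solyc01g095530.2 with 0.2903 and 0.2869.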

How the data were processed

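Per the labels' protocols, RNA of 8 leaf samples was made into libraries with a TruSeq kit that does not mark strand and sequenced on 1 lane. Per the file headers, the table that the authors deposited gives raw counts per gene beside DESeq-normalized values, which were not used. HTSeq 0.6.1p1, TopHat2 2.0.10 and DESeq2 1.6.3 are named in the submitters' processing notes. Genome build, annotation and counting options are not given in the sources used here. With "null" read as the mutant, 5 columns fit a sample title fully, and 3 columns carry the number 3, which no title has, and show only their group.

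Levels are CPM of the library total. Counts were tested with edgeR 4.0.16 (quasi-likelihood, robust, TMM, filterByExpr with minimum count 10, 18340 genes holding 99.94% of counts, 4 residual degrees of freedom) in R 4.3.3, in a single model with 4 group means and no replicate block, with Benjamini-Hochberg adjustment over all genes tested. The SE was derived from each fold change and its F statistic. On simulated counts for the averaged genotype contrast over 18340 genes, edgeR found 36% of the genes changed 2-fold and 79% of those changed 4-fold, with 12 false calls. DESeq2 1.42.0 found 48% and 84%, with 26 false calls. Few of the 18340 genes were changed, so false calls are to be set against the genes found, not against all genes. The share of false calls among all calls was not counted.

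Members, lists and tests were chosen with earlier results of these data known. Named are the 10 higher members with the largest smaller gap, all lower members and those edgeR called for the averaged genotype contrast. Members nearest the threshold and those beside another member are named too. A few more members were picked for their values after these were seen. Named non-members are the gene left out, genes just outside the threshold, genes between or beside neighbouring members and some with opposite gaps. Alternatives were library totals, RLE, other filters, gaps, minimum CPM and pseudocounts, DESeq2, a replicate block, leaving out each library and, added after seeing the data, leaving out both M82 libraries that stand apart and counting overlaps between groups with TMM factors.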

Additional observations from a re-analysis of the deposited data

How the results depend on the processing

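With 2 libraries per group, counts of calls moved widely. The 14 genotype values of single members kept their direction in all 210 alternatives and their call in 145. Counts of genes called for GA3 in M82 (3 in all) were 0 with library totals or the stricter filter (5 CPM in 2 libraries), 92 without the filter, 108 with DESeq2, 0 without both M82 libraries that stand apart (chosen after seeing the data) and 0 to 22 over the fits without single libraries. For GA3 in the mutant (0 in all) they were 9 without the filter, 29 with DESeq2, 3 without both M82 libraries and 0 to 4. For the averaged genotype contrast (559) they were 1141 without the filter, 1275 with DESeq2, 363 without both M82 libraries and 119 to 1126; members called were 20, 20, 6 and 3 to 12, of 10. Without GA3 (72) genes called were 338, 412, 43 and 1 to 180, and members (4) were 11, 10, 2 and 0 to 5. With GA3 (65) genes called were 438 without the filter, 37 with the stricter filter, 552 with DESeq2 and 2 to 243, and members (0) were 7 without the filter, 7 with DESeq2 and 0 to 2. The difference of the GA3 effects (0) gave 14 without the filter, 20 with DESeq2 and 0 to 1. Higher members (95) numbered 201 at a gap of 0.2, 41 at a gap of 0.5, 353 without both M82 libraries and 133 to 256 without single ones, which can only ease the gap. Lower members (11) numbered 26 and 2 at these gaps, 5 at a minimum of 5 CPM, 3 with a pseudocount of 2, 23 with TMM, 28 with RLE, 39 without both M82 libraries and 18 to 84 without single ones. Fewer libraries or genes are part of these alternatives; other causes were not tested.

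Whether the replicate numbers pair the samples was not shown: deviations of number 1 from the group mean correlated at 0.42 between the M82 groups and 0.05 between the mutant groups, and from -0.02 to 0.18 between groups of different genotype. With a replicate block of number 1 against the other library, calls were 33 for GA3 in M82, 0 in the mutant, 921 for the averaged genotype contrast, 166 without and 200 with GA3, with 15, 7 and 2 members called in the last 3.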

Other observations

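The gene left out of the list, Solyc09g008670.2 on chromosome 9, was at 4.63 and 8.54 CPM in untreated and 25.3 and 17.7 CPM in treated M82, and at 3.14 and 2.25 CPM in the untreated and 45.7 and 26.5 CPM in the treated mutant. Its smaller gap, 1.01, would have placed it among the leading higher members.

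Of the 25 genes with gaps in opposite directions, Solyc03g119530.2 and Solyc09g008320.2 had the widest among those lower in M82 and higher in the mutant, and Solyc03g113250.2 among those the other way. Solyc09g008320.2 was at 28.4 and 30.6 CPM in untreated and 18.2 and 12.3 CPM in treated M82, and at 14.4 and 12.03 CPM in the untreated and 28.9 and 39.3 CPM in the treated mutant. Solyc03g113250.2 was at 4.22 and 1.5977 CPM in untreated and 9.18 and 8.47 CPM in treated M82, and at 12.2 and 8.27 CPM in the untreated and 6.06 and 3.93 CPM in the treated mutant. With TMM factors the opposite gaps were again met by 25 genes, 6 lower in M82 and higher in the mutant and 19 the other way.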
